A study of Mus musculus with 24 samples.

Results

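The genes described here encode 10 acute phase proteins of the liver, *Saa1*, *Saa2*, *Saa3*, *Lcn2*, *Hp*, *Orm1*, *Orm2*, *Cp*, *Itih4* and *Hpx*, out of 55487 genes in the count table. They were selected by symbol, with their level under palmitate known, so the difference between palmitate and carrier is given as a description with no test for these genes. Not all of them were lost. *Saa3*, *Lcn2*, *Hp* and *Orm1* were at between 1.50% and 8.08% of their level without palmitate, *Cp* and *Hpx* stood at 70.3% and 69.0%, *Orm2* had few counts, and *Saa1*, *Saa2* and *Itih4* were close to 0 in every group.

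The cells were AML-12, an established mouse hepatocyte line grown from a mouse that carried a transforming growth factor alpha transgene, so all groups come from 1 line. There were 24 libraries in 6 groups of 4, read by BRB-seq, which barcodes RNA samples before pooling and sequences the 3′ ends of mRNAs. BSA cells were given albumin, the carrier of palmitate, alone, and PAL cells 0.25 mM palmitate, a saturated fatty acid used to model steatosis in culture, for 48 hours. CON, BMAL1, CHREBP and BOTH cells received the same palmitate, and esiRNA, a pool of small interfering RNAs cut by an endoribonuclease, for the final 24 hours. In CON it was 200 nM against *Egfp*, which mouse cells lack, in BMAL1 100 nM against *Bmal1*, in CHREBP 100 nM against *Chrebp*, and in BOTH the 2 together at 200 nM in total. The growth medium held 10 nM dexamethasone, a glucocorticoid, and the medium used with palmitate did not and had charcoal/dextran-treated serum, which is low in hormones. Whether the BSA wells had the same medium is not given in the sources used here, so palmitate and the change of medium and serum may not be separable in BSA against PAL. The libraries of BSA and PAL came from plate column 1, those of CON and BMAL1 from column 2, and those of CHREBP and BOTH from column 3. Column and *Chrebp* esiRNA therefore cannot be told apart, nor can column and transfection, nor the row block and palmitate or *Bmal1* esiRNA. The total esiRNA dose also differs with the target, except in BOTH against CON, so dose and target cannot be told apart in the other esiRNA comparisons.

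The acute phase response is the rapid change in what the liver secretes after infection or injury. Interleukin 6, acting through gp130 and STAT3, interleukin 1 and tumour necrosis factor, acting through NF-kB, and glucocorticoids act together on hepatocytes, and C/EBP beta and C/EBP delta drive many of the target genes. Serum amyloid A proteins are apolipoproteins of high density lipoprotein, with *Saa1* and *Saa2* made mainly in liver and *Saa3* also in adipose tissue and macrophages. Lipocalin 2 withholds iron from bacteria by binding siderophores, haptoglobin binds free hemoglobin, hemopexin binds heme and ceruloplasmin is a copper-carrying ferroxidase. The orosomucoids are small-molecule-binding plasma glycoproteins, and *Itih4* encodes an inter-alpha-trypsin inhibitor heavy chain.

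On GRCm38, *Saa3* lies on chromosome 7 at 46711998 to 46715700 on the minus strand, *Saa1* at 46740497 to 46742980 on the minus strand and *Saa2* at 46751790 to 46754313 on the plus strand. They are neighbours in a gene cluster, yet of the 3 only *Saa3* had more than a few counts. *Hpx* is on the same chromosome at 105591613 to 105600137, minus strand. *Lcn2* is on chromosome 2 at 32384633 to 32388252 and *Hp* on chromosome 8 at 109575128 to 109579172, both on the minus strand. *Orm1* and *Orm2* are on chromosome 4 with *Orm3* between them, at 63344560 to 63348163 and 63362449 to 63365878. *Cp* is on chromosome 3 at 19957054 to 20009145 and overlaps *Hps3* on the other strand, and *Itih4* is on chromosome 14 at 30886476 to 30902353. These 4 are on the plus strand. All 10 are annotated as protein coding. Counts of *Orm1* and *Orm2* are uncertain, because 58.6% of the 50-base windows in the last 300 bases of their transcripts were shared, against 9.56% for *Saa1* and *Saa2* and 0 for *Saa3* with *Saa1*, *Saa2* or *Saa4*.

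The stretches directly upstream of *Saa1*, *Saa2*, *Saa3* and *Hpx* are printed because these genes share a chromosome and differ in what was measured: without palmitate the mean level of *Saa3* was 66.5 times that with it, *Hpx* under palmitate kept 69.0% of its level, and *Saa1* and *Saa2* were near 0. They are RefSeq promoter entries on GRCm38.p6, written 5′ to 3′ on the gene's strand and ended where an annotated exon begins, and the capitals mark matches to the C/EBP motif TTNNGNAA on either strand. The stretches are chr7:46715701-46715926 for *Saa3*, chr7:46742981-46743230 for *Saa1*, chr7:46751583-46751789 for *Saa2* and chr7:105600138-105600366 for *Hpx*.

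*Saa3*: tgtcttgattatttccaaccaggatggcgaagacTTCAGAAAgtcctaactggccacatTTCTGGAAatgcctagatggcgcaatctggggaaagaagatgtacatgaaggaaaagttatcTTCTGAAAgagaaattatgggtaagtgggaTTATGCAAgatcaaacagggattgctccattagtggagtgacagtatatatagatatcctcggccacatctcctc
*Saa1*: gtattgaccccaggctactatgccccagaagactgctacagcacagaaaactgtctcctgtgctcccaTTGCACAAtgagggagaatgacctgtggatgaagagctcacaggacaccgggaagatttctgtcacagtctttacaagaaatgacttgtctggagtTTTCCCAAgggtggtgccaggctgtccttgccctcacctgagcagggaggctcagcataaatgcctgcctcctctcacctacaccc
*Saa2*: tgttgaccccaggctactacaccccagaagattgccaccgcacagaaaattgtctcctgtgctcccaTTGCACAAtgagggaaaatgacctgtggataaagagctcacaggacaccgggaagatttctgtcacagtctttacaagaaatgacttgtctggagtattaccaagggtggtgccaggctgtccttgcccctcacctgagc
*Hpx*: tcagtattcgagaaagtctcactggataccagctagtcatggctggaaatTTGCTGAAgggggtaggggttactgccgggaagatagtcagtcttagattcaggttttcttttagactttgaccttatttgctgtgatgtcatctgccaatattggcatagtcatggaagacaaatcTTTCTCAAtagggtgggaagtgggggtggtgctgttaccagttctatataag

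*Saa3* held 4 C/EBP matches, of which TTATGCAA was the nearest to the gene, *Saa1* and *Hpx* held 2 each and *Saa2* held 1. Over the 250 bases upstream of the RefSeq starts, *Saa1* and *Saa2* were 94.8% identical to each other, and *Saa3* was 48.5% identical to *Saa1* and 47.8% to *Saa2*. RefSeq entries matched 8 of the 10 genes and gave 9 windows, with *Cp* matched by 2 of them and *Hp* and *Orm1* by none. A C/EBP match was present in 8 of the 9 windows, beside 36.8% of 32851 promoters of the same length. The *Lcn2* window lies wholly inside the annotated gene, and 1 of the *Cp* windows, with its match, lies mostly inside *Cp*. The NF-kB motif, which is GGG, then 2 bases of any kind, TT, 1 of any kind and CC, was in 0 of the 9, beside 4.11% of all promoters. The STAT3 motif TTCNNNGAA was in the *Itih4* window, beside 7.02%, and AGAACA, the core of the glucocorticoid receptor element, was in those of *Orm2* and *Cp*, beside 16.1%. Both strands were searched for each motif. A match is a description of letters, and its absence from these windows says nothing of the factor.

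A library held between 5399700 and 11237474 gene counts, with 14420 to 15644 genes detected, and 3 counts corresponded to between 0.267 and 0.556 CPM, the count scaled to a common library total. Each of the 36 pairs of replicates differed by more than counting noise. The labels do not say that replicates were separate cultures, so p-values measure the spread between these libraries. Levels are normalized counts, that is, counts divided by DESeq2 size factors of all 24 libraries, given as mean ± SD with n = 4 unless each library is listed, in the order of replicates 1 to 4. All 15 hepatocyte markers checked had over 3 counts in some library, but no library held more than 5 for *Ahsg*, 9 for *Apoa2* or 15 for *Apoa1* and *Apoh*. Of the targeted transcripts, *Bmal1*, listed as *Arntl*, was at 44.7 ± 11.6 in CON, 26.0 ± 4.82 in BMAL1 and 22.8 ± 6.64 in BOTH, and *Chrebp*, listed as *Mlxipl*, at 35.6 ± 7.26 in CON, 25.9 ± 4.75 in CHREBP and 17.0 ± 4.91 in BOTH. Against CON, DESeq2 called both lower in BOTH (*Padj* = 0.00994 and 0.00762), but *Chrebp* was not called in CHREBP (log2, -0.46; *Padj* = 0.593), and *Bmal1* had no *Padj* in BMAL1 (log2, -0.78). Without esiRNA, *Chrebp* was at 59.8 ± 17.3 in BSA and 33.3 ± 6.90 in PAL, where DESeq2 called it lower (log2, -0.86; *Padj* = 0.0173). *Bmal1* was at 49.1 ± 7.31 and 50.5 ± 11.9 and was not called.

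*Saa3* had the widest gap between carrier and palmitate among the 10 genes. Its normalized counts were 8188, 7998, 8313 and 7773 in BSA and 108, 119.7, 139.8 and 117 in PAL. The groups were far apart, and the lowest BSA library was 33.6 times the highest of the 20 palmitate libraries. The mean was 8068 ± 235 in BSA and 121 ± 13.3 in PAL, which is 1.50% ± 0.165 of BSA, and the log2 fold change was -6.05 (SE, 0.08). In such bulk libraries fewer cells expressing a gene and less of its RNA per cell cannot be told apart. The level was also low with the control esiRNA, at 129, 144, 106 and 121 in CON. BMAL1 libraries had 171, 141, 166 and 127, CHREBP libraries 231, 161, 151 and 192, and BOTH libraries 231, 199, 176 and 225. In the order of the means, PAL, CON, BMAL1, CHREBP and BOTH, neighbours overlapped in every pair, and the highest of these means, 208 ± 25.5 in BOTH, was 2.57% ± 0.316 of BSA.

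*Saa1* and *Saa2*, whose products are the circulating serum amyloid A proteins of mouse plasma, were near the limit of detection. *Saa1* had 5 raw counts in the 4 BSA libraries together (2, 1, 2 and 0) and 0 or 1 in each other group. *Saa2* also had 5, all in BSA replicate 2, and 0 or 1 in each other group. No fold is given for either, and a change under palmitate was not detectable at this depth.

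*Lcn2* was the most variable of the genes with many counts, except in CHREBP, where replicates ranged over 1.53-fold for *Saa3* and 1.45-fold for *Lcn2*. BSA libraries had 3336, 6231, 4638 and 3681 normalized counts, and PAL libraries 129, 173, 86.1 and 105. The replicates of 1 group differed by up to 2.01-fold in PAL and 1.87-fold in BSA, yet the lowest BSA library was 13.9 times the highest palmitate library. The mean was 4471 ± 1296 in BSA and 123 ± 37.5 in PAL, or 2.76% ± 0.840 of BSA, and the log2 fold change was -5.17 (SE, 0.30). CON libraries split into 74.5 and 61.4 on the one side and 241 and 239 on the other, a 3.92-fold range. BMAL1 had 78.7, 78.6, 133 and 76.8, CHREBP 90.8, 98.1, 80.0 and 67.6, and BOTH 77.4, 95.5, 78.5 and 47.0. The highest library was replicate 2 or 3 in all 6 groups.

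The orosomucoids, carriers of small lipophilic molecules in plasma, were low in all groups. *Orm1* had 87.4, 119, 98.3 and 129 normalized counts in BSA and 9.24, 8.05, 12.3 and 5.44 in PAL. Every BSA library was at least 4.65 times every palmitate library, and PAL stood at 8.08% ± 2.63 of BSA with a log2 fold change of -3.66 (SE, 0.32). The esiRNA groups ran from 4.07 to 18.8 with no order among them, since BMAL1 at 8.93 ± 4.42, CON at 10.5 ± 4.36, CHREBP at 13.4 ± 4.09 and BOTH at 14.4 ± 3.26 all overlapped. *Orm2* had 24 raw counts in BSA (6, 5, 7 and 6) and 1 in PAL, a ratio of 23.5 after scaling for depth (exact 95% interval, 3.83 to 966, for counting error only). It had 0 counts in CON, so that BSA was at least 9.31-fold higher, taking 3 counts over the group as the floor (the exact interval starts at 7.00). BMAL1 had 3, CHREBP 1 and BOTH 4.

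*Hp*, whose product captures hemoglobin released by lysed red cells, had 94.2, 109, 98.3 and 80.6 normalized counts in BSA. PAL libraries had 11.9, 8.05, 2.24 and 8.55, which is 8.03% of BSA on average, and the log2 fold change was -3.65 (SE, 0.33). The lowest BSA library was 6.62 times the highest palmitate library. CON was lower still at 1.80, 2.70, 3.29 and 3.48, below BMAL1 at 5.43, 7.44, 5.75 and 6.40 without overlap. CHREBP had 3.32, 6.89, 7.66 and 12.2, and BOTH had 7.74, 0, 10.4 and 7.68. These are a few reads per library, too few for DESeq2 to give *Hp* a *Padj*, the Benjamini-Hochberg adjusted p, in BMAL1 against CON.

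**Figure D1:**
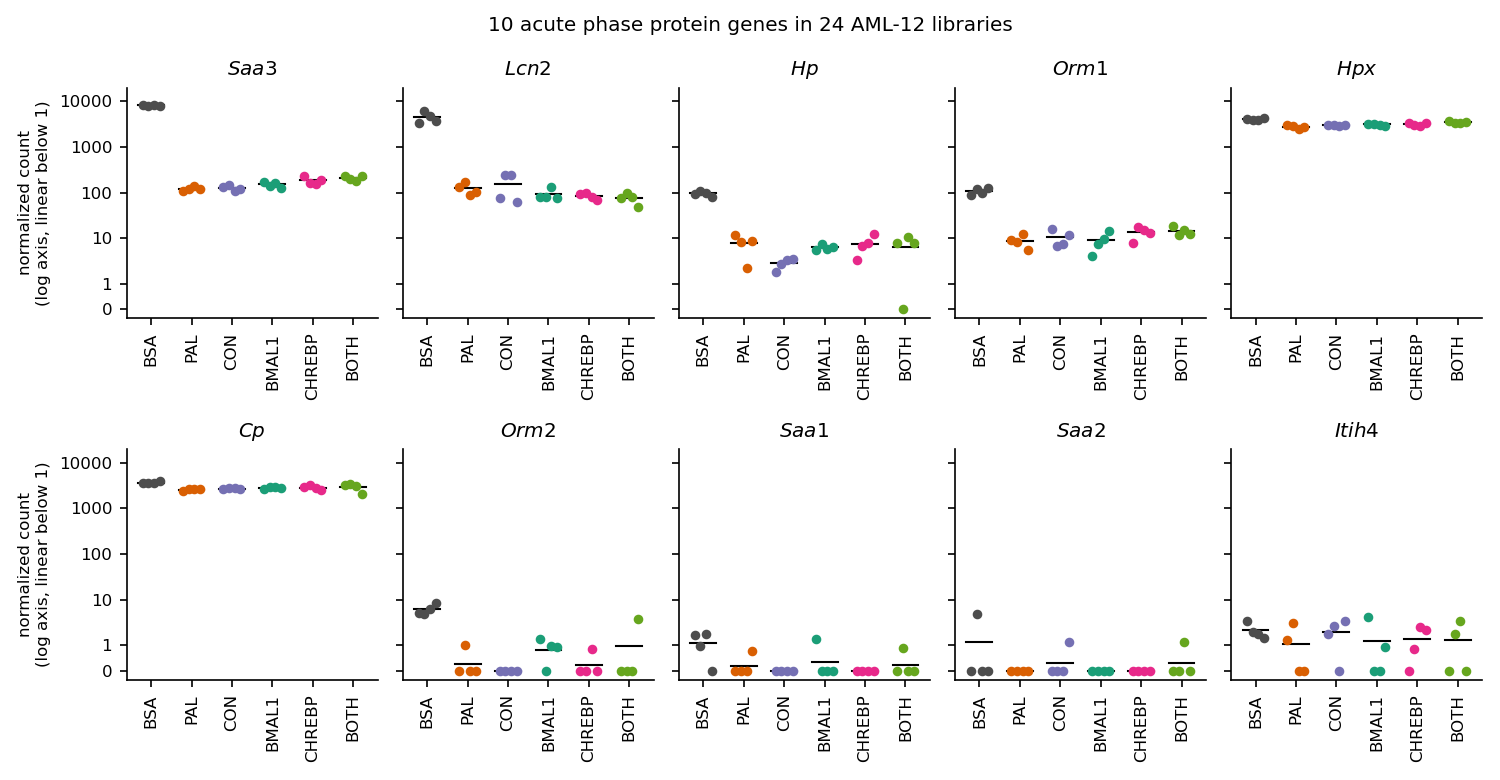
Normalized counts of the 10 genes in each of the 24 libraries (points; vertical axis logarithmic and linear below 1), by group. *Saa3*, *Lcn2*, *Hp* and *Orm1* separate BSA from all 20 palmitate libraries, *Cp* and *Hpx* shift slightly, and *Saa1*, *Saa2* and *Itih4* lie near 0 throughout.

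*Hpx* and *Cp*, whose products handle heme and copper, kept most of their level. *Hpx* had 4035, 3924, 3965 and 4252 normalized counts in BSA and 2972, 2913, 2526 and 2759 in PAL. The groups did not overlap, and the mean was 4044 ± 146 in BSA and 2792 ± 199 in PAL (log2 fold change, -0.53; SE, 0.06). *Cp* had 3682, 3524, 3554 and 3951 in BSA and 2348, 2715, 2603 and 2668 in PAL, also without overlap (log2 fold change, -0.50; SE, 0.06). *Hpx* then stood at 2979, 2973, 2924 and 3068 in CON, 3194, 3244, 3064 and 2909 in BMAL1, 3351, 2969, 2931 and 3307 in CHREBP and 3617, 3338, 3379 and 3456 in BOTH. In BOTH it was at 85.3% ± 3.04 of BSA, against 73.8% ± 1.48 in CON. *Cp* had 2699, 2811, 2739 and 2615 in CON and 3326, 3475, 3144 and 2107 in BOTH, where replicate 4 was below every CON library. *Itih4* had 9 raw counts in BSA (4, 2, 2 and 1) and between 4 and 9 in each palmitate group, too few to compare.

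The set changed in makeup as well as in amount. Its 10 genes took 0.271% ± 0.0140 of all gene counts in BSA and between 0.0738% and 0.0869% in the palmitate groups. *Saa3* and *Lcn2* made up 61.5% of the set's counts in BSA and 4.32% in PAL, while *Cp* and *Hpx* went from 37.5% to 95.4%. Most of what was counted from these genes thus came from an apolipoprotein and a siderophore-binding protein in BSA, and from a heme carrier and a copper carrier in PAL.

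**Figure D2:**
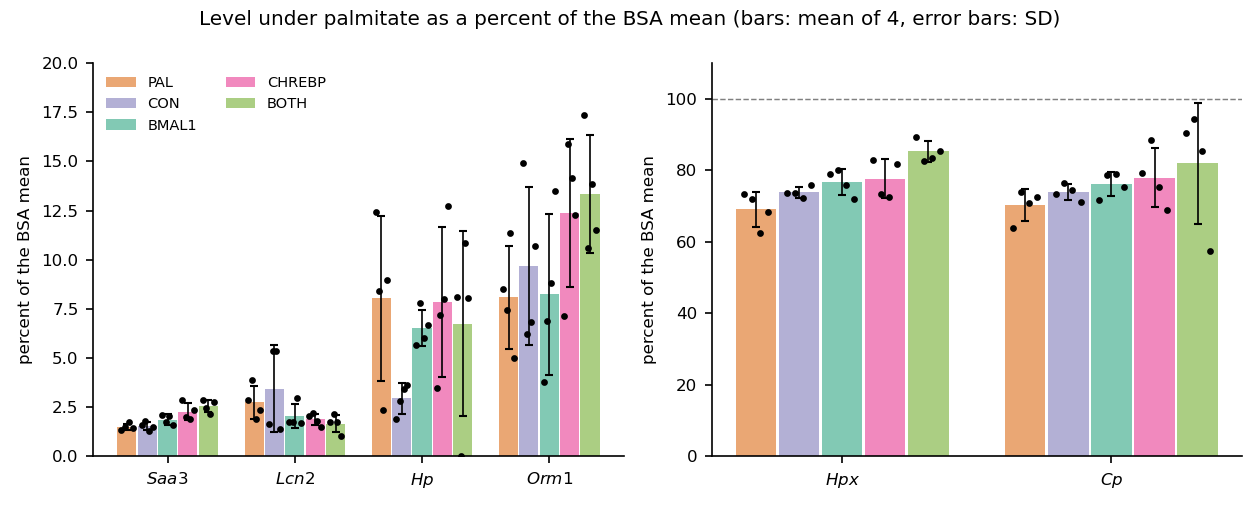
Level of *Saa3*, *Lcn2*, *Hp*, *Orm1*, *Cp* and *Hpx* in the 5 palmitate groups as a percentage of the BSA mean (bars, mean of 4 libraries; error bars, SD; points, libraries; the panels differ in scale). The means of *Cp* and *Hpx* lie between 69.0% and 85.3% in every group, and those of *Saa3* and *Lcn2* are at 3.44% or less.

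In the table of all genes, 7 of the 10 passed the filter of 25 summed counts and 6 were called lower in PAL at *Padj* under 0.1, where 7.6% of the 12827 genes tested were. Of these, 4 were lower by at least 2-fold, where 1.32% of all genes were. The median log2 fold change was -3.66 over the 7 and 0.005 over all genes. Nothing is read from these counts, because the same contrast chose the genes, and *Orm2* passed the filter only through BSA (24 counts in BSA and 1 in PAL).

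The comparison of CON with PAL addressed transfection itself, and the PAL libraries are also those the choice of genes rests on. Of the 6 genes tested, DESeq2 called 0, where 2.51% of 12928 genes were called. At an unadjusted p under 0.05 there was 1, *Hp*, and edgeR also called 0. *Saa3* differed by 0.04 on the log2 scale (95% interval, -0.26 to 0.34; *Padj* = 0.969), *Hpx* by 0.09 (SE, 0.06; *Padj* = 0.598) and *Cp* by 0.07 (SE, 0.06; *Padj* = 0.752). *Lcn2*, at 0.32 (SE, 0.54), was the least precisely measured of the 4.

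*Bmal1* esiRNA was not followed by a called change. In BMAL1 against CON, DESeq2 called 0 of the 6 genes tested, of which *Hp* and *Orm1* had no *Padj* and could not be called, where 0.49% of 13883 genes were called, 0 had an unadjusted p under 0.05 and edgeR called 0. *Saa3* was at 0.27 (95% interval, -0.04 to 0.57; *Padj* = 0.783), an interval that reaches the size of the difference seen with *Chrebp* esiRNA. *Lcn2* was at -0.75 (SE, 0.42; *Padj* = 0.743).

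*Chrebp* esiRNA went with more *Saa3*. CHREBP libraries averaged 184 ± 36.1 normalized counts and CON libraries 125 ± 15.7, without overlap, which is 1.46-fold (log2, 0.54; 95% interval, 0.25 to 0.84; *Padj* = 0.0151). It was the 1 gene called higher of the 6 tested, 5 of them with a *Padj*, where 2.65% of all genes were. At an unadjusted p under 0.05 there were 3, *Saa3*, *Lcn2* and *Hp*, the last with no *Padj*. The call rests on single libraries: without CHREBP replicate 1 *Padj* was 0.185, and without CON replicate 3 it was 0.114. *Hpx* was at 0.07 (*Padj* = 0.775) and *Lcn2* at -0.88 (SE, 0.42; *Padj* = 0.369), or -1.14 with a *Padj* of 0.0985 without CON replicate 4.

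With both esiRNAs, *Saa3* and *Hpx* rose. *Saa3* was 1.66-fold higher in BOTH than in CON (log2, 0.73; 95% interval, 0.43 to 1.02; *Padj* = 6.63e-05), and *Hpx* was 1.15-fold higher (log2, 0.20; 95% interval, 0.09 to 0.32; *Padj* = 0.00872). Neither gene overlapped between the groups, and these were 2 of the 6 tested, where 5.99% of all genes were called higher. Both calls held when each library in turn was left out, with *Padj* of at most 0.00201 for *Saa3* and 0.0495 for *Hpx*. The BSA mean of *Saa3* was still 38.9 times that of BOTH. *Lcn2* was at -1.05 (SE, 0.42; *Padj* = 0.118), opposite in sign to *Saa3*, and *Cp* at 0.15 (SE, 0.11; *Padj* = 0.546). Without BOTH replicate 4, the low library, *Cp* was at 0.29 with a *Padj* of 0.00154. *Lcn2* passed the threshold without CON replicate 1 (*Padj* = 0.0310) or CON replicate 4 (*Padj* = 0.0125), its 2 low CON libraries.

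**Figure D3:**
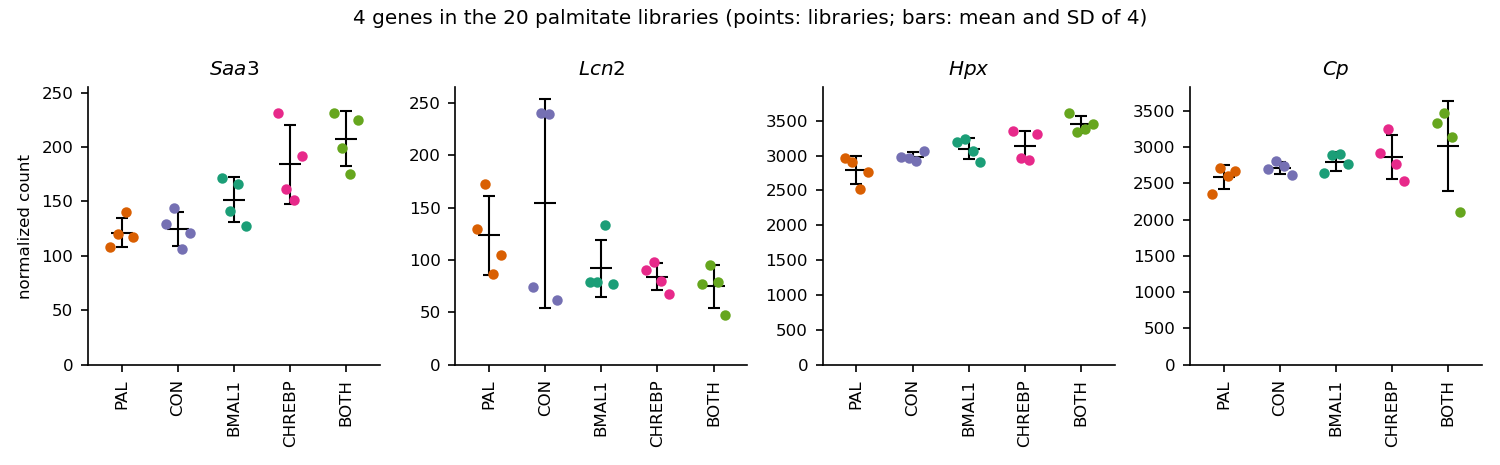
Normalized counts of *Saa3*, *Lcn2*, *Hpx* and *Cp* in the 20 palmitate libraries (points, linear axes; lines, mean and SD of 4). *Saa3* is lowest in PAL and CON and highest in CHREBP and BOTH, *Lcn2* has 2 high CON libraries, and *Cp* has 1 low BOTH library.

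Adding *Bmal1* esiRNA to *Chrebp* esiRNA gave no called change. In BOTH against CHREBP, DESeq2 called 0 of 6, again with no *Padj* for *Hp* and *Orm1*, where 0.994% of all genes were called, with 1 gene at an unadjusted p under 0.05 (*Hpx*; log2, 0.14; SE, 0.06; *Padj* = 0.397) and 0 called by edgeR. *Saa3* was at 0.18 (SE, 0.15; *Padj* = 0.817), and *Cp* was called without BOTH replicate 4 alone (log2, 0.21; *Padj* = 0.0975). Adding *Chrebp* esiRNA to *Bmal1* esiRNA did: *Saa3* was higher by 0.46 (SE, 0.15; *Padj* = 0.0323) and *Hpx* by 0.15 (SE, 0.06; *Padj* = 0.0911) in BOTH against BMAL1, both without overlap, where 6.35% of all genes were called higher. The *Saa3* call there was lost without BMAL1 replicate 2 (*Padj* = 0.117), BMAL1 replicate 4 (*Padj* = 0.169) or BOTH replicate 1 (*Padj* = 0.117). The *Hpx* call was lost with edgeR (adjusted p = 0.103) and in a fit of those groups alone (*Padj* = 0.233), and without any of 6 libraries, which were BMAL1 replicates 1, 3 and 4 and BOTH replicates 1, 3 and 4 (*Padj* from 0.104 to 0.318). *Cp* was again called without BOTH replicate 4 (log2, 0.24; *Padj* = 0.0112).

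The interaction, which asks whether the *Bmal1* esiRNA effect differs with and without *Chrebp* esiRNA, was called for 0 of the 6 genes by DESeq2, which gave 4 of them a *Padj*, where 1.47% of all genes were called, with 0 at an unadjusted p under 0.05 and 0 by edgeR. For *Saa3* it was -0.08 (95% interval, -0.51 to 0.34), so a difference of that order is within its error. *Lcn2* was at 0.58 (SE, 0.60). The likelihood ratio test over the 4 esiRNA groups called *Saa3* (*Padj* = 0.00025) and *Hpx* (*Padj* = 0.0457), where 9.92% of all genes were called, and *Lcn2* was not called (*Padj* = 0.286). The *Hpx* call was lost without BOTH replicate 1 (*Padj* = 0.222) or CON replicate 1, 2 or 3 (*Padj* from 0.110 to 0.141).

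**Figure D4:**
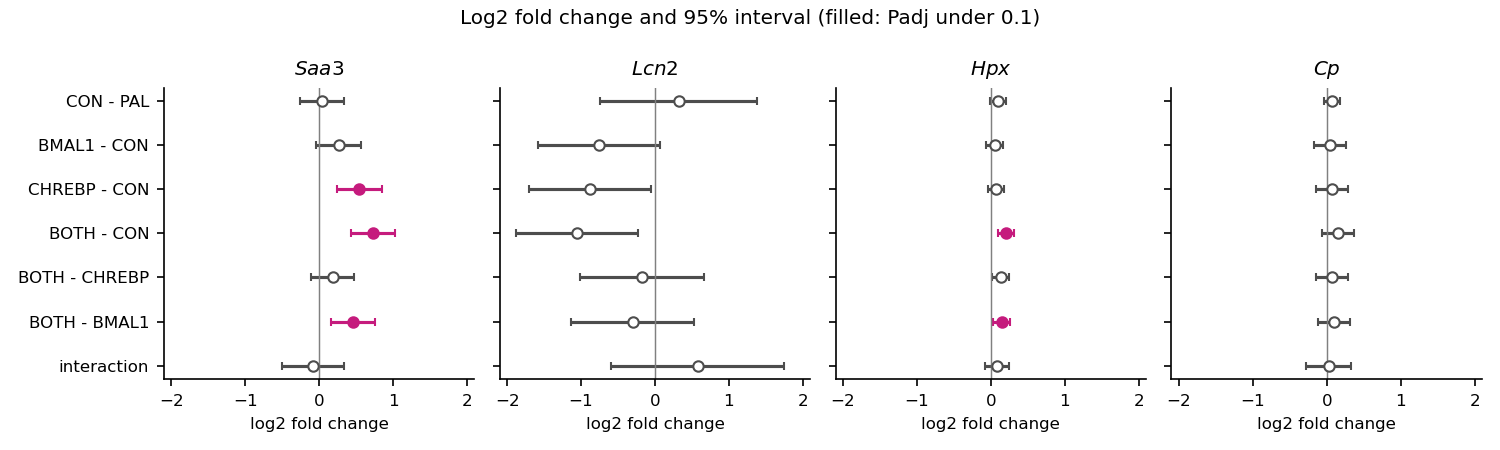
Log2 fold changes of *Saa3*, *Lcn2*, *Hpx* and *Cp* in the comparisons among the palmitate groups (points; bars, 95% intervals; filled where *Padj* was under 0.1). *Saa3* lies above 0 with an interval clear of it in CHREBP and BOTH against CON and in BOTH against BMAL1.

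An interferon response differed between the same groups and is given beside the *Saa3* values. Over an interferon list, PAL libraries summed to between 564 and 599 normalized counts and CON libraries to between 1315 and 9088. BMAL1 libraries lay between 1436 and 2065, CHREBP libraries between 27893 and 58548, and BOTH libraries between 54400 and 93728. In CHREBP and BOTH against CON, 20 of 20 tested list genes rose, beside 2.65% and 5.99% of all genes, among them *Rsad2*, an antiviral enzyme (log2, 3.60 and 4.70), and *Oas3*, a sensor of double-stranded RNA (log2, 3.94 and 4.87). In CON against PAL 16 of 19 list genes rose, beside 2.51% of all genes called, and *Saa3* differed by 0.04 (95% interval, -0.26 to 0.34). In BMAL1 against CON 10 of 20 fell, beside 0.49%, and *Saa3* was at 0.27 (95% interval, -0.04 to 0.57). With edgeR these counts were 7 and 0, and leaving out 1 library moved the 10 falls to between 2 (without CON replicate 2) and 16 (without CON replicate 1), with 4 to 6 without CON replicate 3 or BMAL1 replicate 1, 2 or 3. Each library was ranked within its group, with 1 the lowest. CHREBP libraries ranked 4, 3, 1 and 2 for the list and 4, 2, 1 and 3 for *Saa3*. BOTH libraries ranked 2, 4, 3 and 1 for the list and 4, 2, 1 and 3 for *Saa3*. The part of the interferon response in the rise of *Saa3* was not tested.

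Other acute phase genes of hepatocytes, not all of them for secreted proteins, were mostly lower with palmitate too. Of a list of 39 such genes, 24 were tested in PAL against BSA, 14 were called lower, beside 7.6% of all genes, and 2 higher, and their median log2 fold change was -0.52. *C3*, the central complement component, had the largest difference among those with at least 50 normalized counts on average, at 6398, 6462, 6649 and 6331 normalized counts in BSA and 1096, 1117, 1001 and 1062 in PAL (log2, -2.59; SE, 0.05). *Cfb*, complement factor B, was at -1.06 and *Vnn1*, a pantetheinase, at -1.02. *Fgb*, the fibrinogen beta chain, named after its values were seen, was at -1.45, with 36.8, 64.8, 46.9 and 58.0 in BSA and 19.8, 21.1, 8.94 and 24.1 in PAL. *F3*, tissue factor, was among the genes called higher, at 0.40. The negative acute phase proteins, which fall in plasma during the response, were lower as well: 5 of 8 tested were called lower and 0 higher by DESeq2, with *Alb*, albumin, at -0.97, *Trf*, transferrin, at -0.58 and *Gc*, the vitamin D binding protein, at -0.54. These lists, and those that follow, were chosen with results of these data known, so that their counts describe them and test nothing further.

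**Figure D5:**
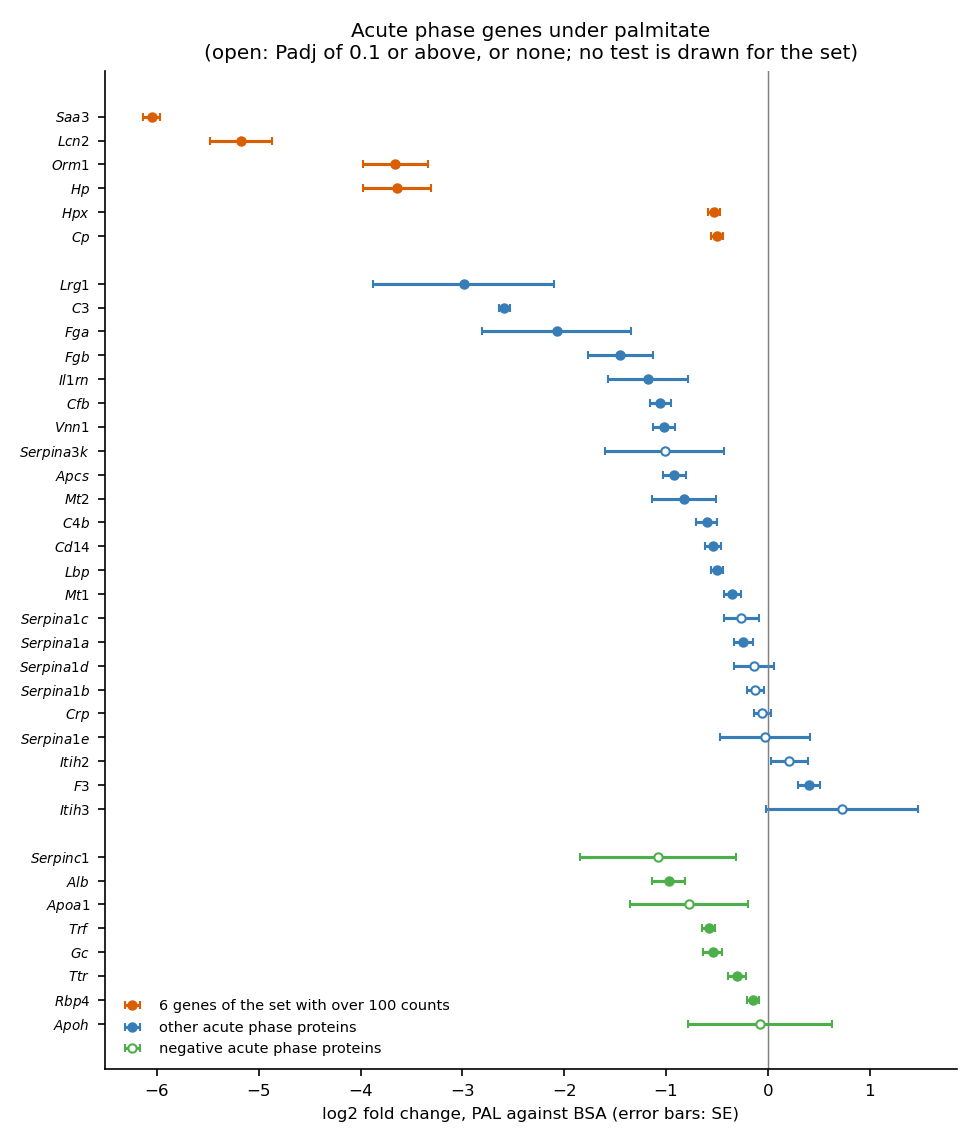
Log2 fold change in PAL against BSA (points; bars, SE) for 6 genes of the set, other acute phase genes and 8 negative acute phase genes, with open points where *Padj* was 0.1 or above or was not given. *Saa3*, *Lcn2*, *Orm1* and *Hp* lie at -3.65 or below, further from 0 than any gene shown of the other lists, and no test is drawn for the set.

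With *Chrebp* esiRNA other acute phase genes than *Saa3* rose as well. In CHREBP against CON, 4 of 24 were called higher, beside 2.65% of all genes, and 0 lower, with *C4b*, complement component 4, at 0.65 and *Cfb* at 0.48. The count was 2 without CHREBP replicate 1 or 4 or without CON replicate 1, 2 or 4, and *C4b* and *Cfb* were called in each case. In BOTH against CON, 6 were higher, beside 5.99% of all genes, among them *C4b* at 1.14, *Vnn1* at 0.82 and *Cfb* at 0.75, and 5 were lower, beside 3.75%, all of them metallothioneins (*Mt1*, *Mt2*) or alpha-1-antitrypsin genes of a near-identical family. The 5 became 2 without BOTH replicate 2 and 3 without CON replicate 1 or 3. *Cfb* in BOTH, at 454, 544, 452 and 488, overlapped its BSA values of 462, 514, 486 and 446, as *Saa3* and *Lcn2* did not.

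RNA of genes upstream of the response was read from lists of receptors and signalling genes and of transcription factors, the latter with NF-kB inhibitors. In PAL against BSA, 10 of 25 genes of the transcription factor list were called lower and 0 higher by DESeq2, where 7.6% of all genes were called lower. *Cebpd* was at 522, 458, 470 and 467 normalized counts in BSA and 259, 221, 312 and 205 in PAL (log2, -0.95), *Cebpb* at -0.70, and *Nfkbia*, the NF-kB inhibitor that NF-kB itself induces, at -0.58. Of 22 receptor and signalling genes, 8 were lower, with *Il6ra*, the interleukin 6 receptor, at -1.21 and *Socs3*, a feedback inhibitor of STAT3 signalling, at -0.40, and 1 was higher, *Il11*, a cytokine of the gp130 family, at 0.86. The 8 became 4 without BSA replicate 3 or 4 and 5 without BSA replicate 2 or PAL replicate 2 or 3, and *Il6ra* and *Socs3* were called in each case. *Il1a*, *Il1b* and *Osm*, which encode cytokines that induce these genes, had 0 counts in all 24 libraries, *Il6* had 2 in all and *Tnf* 10. *Lif*, another cytokine gene of the list, was counted in every group, with means from 105 in CON to 166 in BOTH. In BOTH against CON, 10 genes of the transcription factor list rose, beside 5.99% of all genes, led by *Atf3* at 0.90, *Cebpb* at 0.42 and *Klf6* at 0.39. Of the same list 1 fell, though 0 did with edgeR. In CHREBP against CON 4 were called higher, beside 2.65% of all genes, and 0 lower. The 4 became 2 with edgeR or without CHREBP replicate 1 or 2 or CON replicate 1. In BMAL1 against CON, DESeq2 called 0 of 25, or 2 higher in a fit of those groups alone. It also called 0 in CON against PAL, or 1 lower without PAL replicate 2 or 3.

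Because the medium used with palmitate lacked dexamethasone, and that of the BSA wells is not known, a glucocorticoid response list was also read. In PAL against BSA, 6 of 12 tested genes were lower, again beside 7.6% of all genes, and 0 higher, with *Sult1a1*, a sulfotransferase, at -1.13 and *Sgk1*, a kinase induced by glucocorticoids, at -0.35. The summed list was 6239 to 6662 in BSA and 5428 to 5860 in PAL. Its part in the low *Saa3*, *Lcn2*, *Hp* and *Orm1* was not tested. Among 13 genes of iron and copper handling, 4 were lower, or 2 without PAL replicate 3, and *Atp7b*, the transporter that loads copper onto ceruloplasmin, was at -0.92. The 1 called higher, *Slc40a1*, the iron exporter ferroportin, was at 0.18, and none was without BSA replicate 1 or 2 or PAL replicate 3. Of 6 tested receptor and clearance genes, 1 was called, *Lrp1*, which takes up hemopexin-heme complexes (log2, -0.33; DESeq2 *Padj* = 0.0799), and it was not called without BSA replicate 1, 2 or 3 or PAL replicate 2, 3 or 4, with *Padj* of up to 0.264.

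Markers of other cell types were few, except those of cholangiocytes. The macrophage list summed to between 12.6 and 31.7 normalized counts in any library, with *Adgre1*, *Marco* and *Clec4f* at 0 throughout, and the neutrophil list to between 2.21 and 27.4, with 7 of 10 genes at 0. Adipocyte markers summed to 72.3 to 131 with 4 of 7 at 0, and stellate cell and fibroblast markers to at most 28.0 with 4 of 9 at 0. Cholangiocyte markers were plentiful in every library and summed to 18289 to 20009 in BSA and 15821 to 17077 in PAL. The hepatocyte list summed to 13493 to 15538 and 10386 to 12030, of which *Trf* alone averaged 9625 and 6407. The cholangiocyte markers differed in direction: *Spp1*, osteopontin, was lower in PAL (log2, -0.48) and *Krt19*, a keratin, higher (log2, 0.53). The part of either in the differences was not tested.

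The genes most like each member were found among 9369 genes with a mean of at least 50 normalized counts, by Pearson's r of log2 levels. Over all 24 libraries, *Saa3* was most like *C3* (r = 0.993) and the neutrophil chemokine genes *Cxcl5* (r = 0.976) and *Cxcl1* (r = 0.975). The latter were also, after *Akr1b7*, the nearest to *Lcn2*, at 0.953 and 0.946. *Akr1b7*, an aldo-keto reductase gene, was at 0.956. *Cxcl5* shows the shared shape, with 10684, 9839.9, 9463 and 9619.6 normalized counts in BSA and 924, 821, 978 and 850.4 in PAL. *Hpx* was most like *Cyp4a12a*, a fatty acid hydroxylase gene (r = 0.935), and the monocyte chemokine gene *Ccl2* (r = 0.908), and *Cp* was most like *Psd3* (r = 0.890). All points share libraries and size factors, the BSA and palmitate libraries lie apart for these genes, and r is given as a description.

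Within the 20 palmitate libraries the likeness changed. *Saa3* was then nearest to *Zfp319* (r = 0.864), *Axin1* (r = 0.857) and *Rbm43* (r = 0.841), *Hpx* to *Lipa*, the lysosomal acid lipase gene (r = 0.846), and *Lcn2* to *Sh3d19* (r = 0.782). *Cp* was nearest to *Chd1* (r = 0.942) and *Resf1* (r = 0.914), and in BOTH replicate 4, where *Cp* was low, *Chd1* was at 153 and *Resf1* at 344, against at least 308 and 972 in the other BOTH libraries. *Saa3* and *Hpx* correlated at r = 0.758 over these 20 libraries and *Saa3* and *Lcn2* at -0.469. Over all 24 libraries, with group means removed, the same pairs were at 0.310 and -0.067. These correlations describe libraries that share groups and size factors and carry no test.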

How the data were processed

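BRB-seq libraries of AML-12 cells were analysed, 24 in 6 groups of 4 taken from the sample labels. The deposited values are whole-number read counts for each Ensembl gene in each library, not normalized. Per the labels, the authors aligned reads to mm10 with STAR and counted them with HTSeq or featureCounts, and tool versions, strand setting and treatment of molecular identifiers are not given in the sources used here. The table held 55487 genes and 5 HTSeq summary lines, which were left out of library sizes and tests, and the line for unaligned reads took 24.9% to 28.0% of a library. Intervals and floors (3 counts) cover counting error only.

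Counts were tested with the Wald test of DESeq2 1.42.0 in R 4.3.3 on genes with at least 25 summed counts, with genes called at *Padj* under 0.1. PAL against BSA was a fit of 8 libraries, as was CON against PAL. The 16 esiRNA libraries were fitted together, with an interaction term and a likelihood ratio test. The alternatives were edgeR 4.0.16 (quasi-likelihood test), TMM factors, no filter, other sets of libraries in the fit, the replicate number as a block and leaving out each library. All p-values were adjusted over all genes tested. The fits were tested on simulated data. The labels do not say whether replicate numbers pair libraries across groups, and the main fits treated them as unpaired. Deviations of same-numbered libraries correlated at -0.07 to 0.11 on average, with single pairs up to 0.316 in BOTH against CHREBP. These correlations do not settle whether the wells were paired.

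The 10 genes and the gene lists were chosen with earlier results of these data known. Besides the 10 genes, the rule named up to 3 called genes per list and comparison with the largest change and a mean of at least 50 normalized counts, the 3 genes most like each well counted member and the targeted genes. The other genes named were chosen after their values were seen. They are *Fgb*, *F3*, *Slc40a1* in PAL against BSA, the receptor and cytokine genes at 0 and the markers at 0. *Il6*, *Tnf*, *Lif*, *Ahsg*, *Apoa1*, *Apoa2* and *Apoh* were added in the same way. A gene counted in a list is not reported here. Coordinates came from GENCODE M21 (GRCm38, which is mm10), and promoter sequences from RefSeq on GRCm38.p6.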

Additional observations from a re-analysis of the deposited data

Results flagged for a closer look

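Of 36 combinations of a member and a group that were checked, 1 held a library far from the other 3. *Lcn2* in BMAL1 replicate 3 was at 133.1 normalized counts, and the other BMAL1 libraries lay between 76.8 and 78.7. Chance alone gives about 1 such group in 20. The *Lcn2* difference between BMAL1 and CON was not called with or without that library.

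An interaction is a *Bmal1* esiRNA effect that differed with and without *Chrebp* esiRNA, and none was called for a member. It was called for 16 of 20 interferon response genes with DESeq2 (median log2 of the 20, 2.92) and for 0 of them with edgeR. Outside that list it was called for 6 of 127 list genes tested, or 4.72%, beside 1.47% of all genes. *C4b*, complement component 4, had an interaction of 0.60 on the log2 scale (DESeq2, *Padj* = 0.0566), and *Myd88*, an adaptor of interleukin 1 receptor signalling, of 0.80 (*Padj* = 0.0976). *Tnfaip3*, an inhibitor of NF-kB, was at 0.40 (*Padj* = 0.0691). The interaction was negative for the metallothionein gene *Mt1* (-0.42; *Padj* = 0.00745), for *Socs3* (-0.48; *Padj* = 0.0866) and for *Ttr*, transthyretin (-0.35; *Padj* = 0.0485). With edgeR *Mt1* alone was called, and of the 16 fits that each left out 1 library, *C4b* lost its call in 9, *Myd88* in 11, *Socs3* in 11, *Tnfaip3* in 10 and *Ttr* in 8.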

How the results depend on the processing

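In PAL against BSA 6 members were called, and 7 with edgeR or with no count filter. In BOTH against CON 2 were called, and 3 with all 24 libraries in the fit or with the replicate block. In BOTH against BMAL1, 2 members were called, and 1 with edgeR, with only those groups in the fit or with the replicate block. Leaving out 1 library gave 0 to 2 in CHREBP against CON, 0 to 1 in BOTH against CHREBP, 0 to 2 in BOTH against BMAL1 and 1 to 3 in the likelihood ratio test. The same fits turned the sign of small differences: log2 values ran from -0.038 to 0.12 for *Saa3* and -0.040 to 0.47 for *Orm1* in CON against PAL, from -0.0039 to 0.21 for *Cp* in BOTH against CHREBP, and from -0.17 to 0.044 for *Saa3* and -0.048 to 0.17 for *Cp* in the interaction. The cause was not tested. Whether replicate numbers pair the libraries is not given in the labels. The replicate block gave *Lcn2* a call in BOTH against CON (log2, -0.93; *Padj* = 0.00758) and took that of *Hpx* in BOTH against BMAL1 (*Padj* = 0.120). *Lcn2* was also called in BOTH against CON with all 24 libraries in the fit (*Padj* = 0.0610). Over all genes the block gave 1188 calls in place of 1828 in PAL against BSA, 186 in place of 325 in CON against PAL and 22 in place of 68 in BMAL1 against CON, where edgeR gave 7 and a fit of those groups alone 144. In BOTH against CHREBP edgeR gave 44 and the fit of those groups alone 80 in place of 138, and edgeR gave 47 interactions in place of 204. Leaving out 1 library moved these counts to between 180 and 343 in CON against PAL, 16 and 107 in BMAL1 against CON, 56 and 222 in BOTH against CHREBP and 104 and 291 for the interaction, and the shares of all genes called move with them. The members with few counts, *Saa1*, *Saa2*, *Orm2* and *Itih4*, are limited by depth.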
